A study of Homo sapiens with 6 samples.

Results

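Transcripts of 51 type I interferon and antiviral sensing genes were followed in C4-2, a line that descends from the prostate cancer cells LNCaP, and in its enzalutamide-resistant counterpart, labelled Enz-R. The 51 were a named list of interferon-induced genes, nucleic acid sensors and signalling genes, found by symbol among the 59565 loci of the count table. All 51 were found, and 44 passed the filter on low counts. Each group held 3 RNA-seq libraries. Enzalutamide is an androgen receptor antagonist, and the labels name no other agent or genetic change in either group. They do not say whether Enz-R is 1 clone or a pool, whether the cells were in enzalutamide when collected, or whether libraries came from separate cultures. P-values therefore set the difference between the groups only against how libraries of a group differ, and that spread may be technical. In bulk RNA, fewer cells with a transcript and less of it per cell cannot be told apart.

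Cells meet foreign or displaced RNA and DNA with sensors: RIGI, IFIH1 and TLR3 for RNA, and CGAS for DNA with STING1 as its adaptor. The sensors lead through transcription factors such as IRF3 to the production of interferons. Secreted type I interferon binds the receptor pair IFNAR1 and IFNAR2, the kinases JAK1 and TYK2 are activated, and a complex that includes STAT2 and IRF9 binds interferon-stimulated response elements in target promoters. The targets encode proteins that block viral entry, translation, replication or release. LNCaP cells have been described as poorly responsive to interferon for want of functional JAK1.

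Library totals ran from 15673404 to 28247038 counts. Prostate luminal markers were abundant in both groups, with a summed level over 8 genes of 7674 to 8225 CPM in parental and 4691 to 4935 CPM in Enz-R libraries. The androgen-regulated gene KLK3 made up most of that sum and of its difference, at 4759 CPM in parental and 2528 CPM in Enz-R on average, while EPCAM, KRT8 and KRT18 were called higher by 1.30-fold, 1.32-fold and 1.63-fold. CPM are counts per 1000000, scaled between libraries by TMM factors. The 9 immune markers summed to 5.40 to 6.77 CPM in parental and 7.52 to 8.72 CPM in Enz-R libraries, and none of the 9 was at 0 in all libraries. Of these, the leukocyte gene PTPRC had 2 counts in the parental libraries together and 6 in Enz-R, the T cell gene CD3E had 1 and 2, and the antigen presentation gene CD74 had 44 and 145. The part of such markers in the changes below was not tested. The summed fibroblast markers (5 genes) lay at 3.27 to 3.60 and 2.76 to 3.49 CPM, and the endothelial markers (4 genes) at 7.30 to 9.74 and 2.94 to 3.42 CPM. In the endothelial list VWF and KDR held most of the counts, and PECAM1 had 2 and 4. Mitochondrially encoded genes took 8.78% to 11.3% of counts in parental and 14.5% to 15.5% in Enz-R libraries, and leaving those genes out before scaling changed no call among the 44 genes.

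The interferon genes did not move as a block. In Enz-R, the viral tethering gene BST2, the RNA-binding genes IFIT1 and IFIT3, the oligoadenylate synthetase gene OAS1 and the transcription factor gene IRF1 rose by 3.13-fold to 5.45-fold. The antiviral GTPase gene MX1, the ISG15 ligase gene HERC5, its neighbour HERC6, and the genes IFI44 and IFITM1 fell by 2.60-fold to 3.84-fold. With p-values from the quasi-likelihood test of edgeR, adjusted over all genes by Benjamini-Hochberg, 14 of the 44 tested genes were higher in Enz-R, 14 were lower and 16 were not called at an adjusted p of 0.05. The called share, 63.6%, was near that of all 19029 tested genes, 64.8%, and so was each direction, at 31.8% against 32.4% higher and 32.3% lower. The median log2 fold change of Enz-R over parental was 0.03 for the 44 and 0.01 for all tested genes. Changes of at least 2-fold were called in 7 higher and 8 lower genes, or 15.9% and 18.2%, where all tested genes gave 11.0% and 8.66%. Some genes lay close to that limit on either side, among them EIF2AK2 (-1.02) and IFI35 (-0.98). These counts were not repeated under other processing. The groups did not overlap for 32 of the 44 genes (72.7%), against 68.9% of all tested genes. Enz-R was the upper group for 17 and parental for 15, against 34.2% and 34.7% of all tested genes. Summed over all 51 genes the level was 788 ± 5.68 CPM in parental and 824 ± 28.3 CPM in Enz-R (SD, n = 3 each). In every library between 19 and 25 of the 44 genes lay above their group's mean, so no library carried a shift of the whole list.

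**Figure D1:**
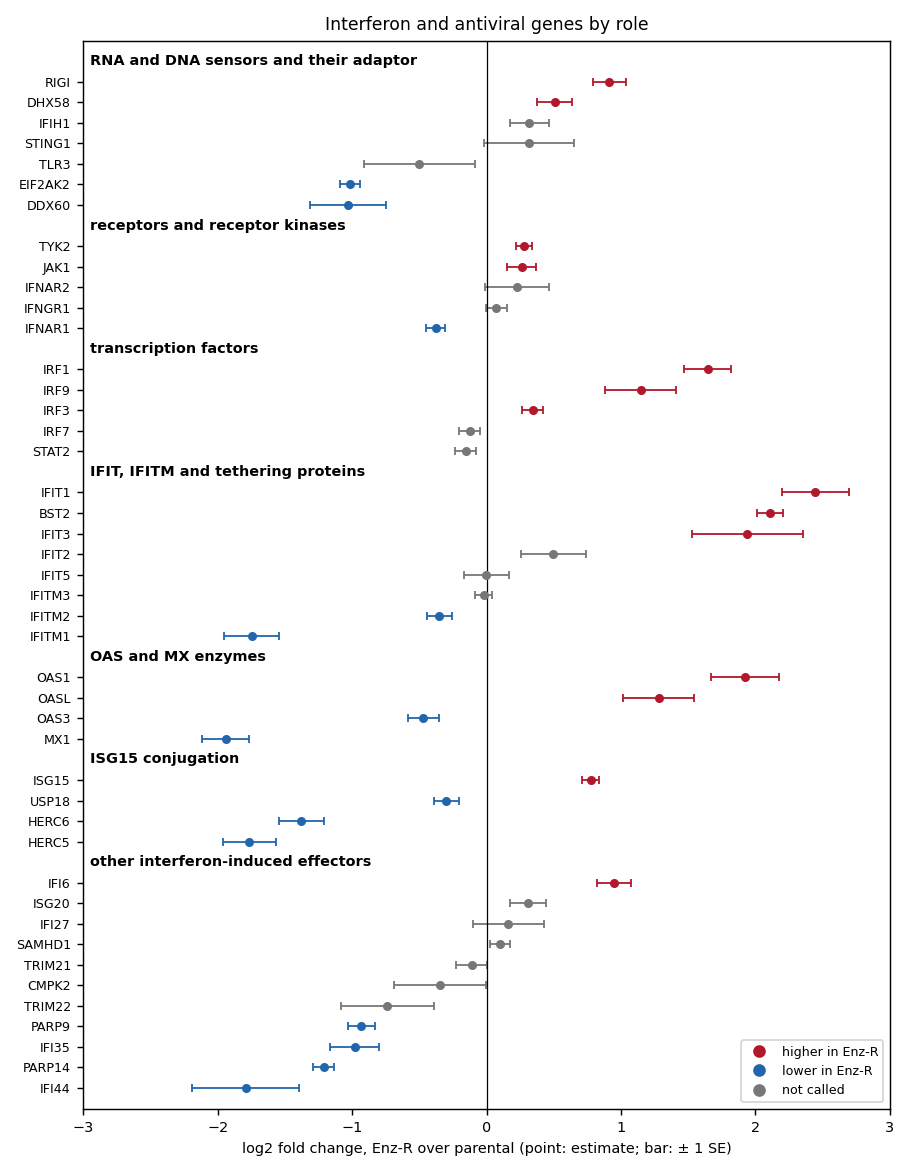
Log2 fold change of Enz-R over parental for the 44 tested genes, grouped by role and ordered within each role; points are the fitted values, bars ± 1 SE, and colour gives the call at an adjusted p of 0.05. Rises and falls stand side by side within most roles, from IFIT1 at 2.45 to MX1 at -1.94.

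Levels between genes were compared per length, as transcripts per 1000000 (TPM) over the union of a gene's exons, within a group only. The most abundant were IFITM3, which blocks viral entry, at 128 ± 4.68 TPM and the ubiquitin-like modifier gene ISG15 at 116 ± 7.87 TPM in the parental group, 2 values closer together than their SDs summed. In the Enz-R group ISG15 stood first at 158 ± 10.7 TPM, followed by BST2 at 116 ± 12.4 and IFITM3 at 100.2 ± 3.85 TPM. The values of BST2 and IFITM3 were also slightly closer together than their SDs summed. BST2 had been eighth in the parental order, at 34.4 ± 4.93 TPM. IRF3 (79.2 ± 6.03 TPM) was the third in the parental order, and in Enz-R IRF3 (80.0 ± 12.9) and IFI6 (77.8 ± 17.1) did not differ beyond their spread. At the other end, 15 of the 51 genes were under 1 CPM in the parental group and 13 in Enz-R.

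**Figure D2:**
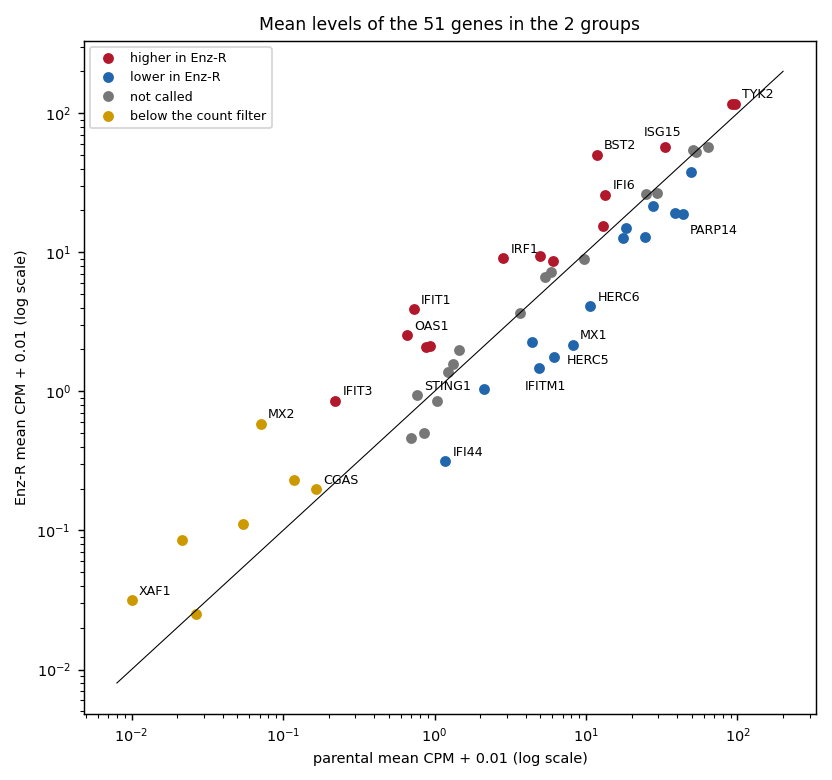
Mean CPM plus 0.01 of all 51 genes in the parental (x) and Enz-R (y) groups on log axes, n = 3 libraries each; the line marks equal levels and colour gives the call. BST2 and IFIT1 lie far above the line and MX1 and HERC5 below it, while the 7 genes below the count filter sit at the lower left.

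Interferon-stimulated response elements were looked for because the complex that includes STAT2 and IRF9 binds them in target promoters. Not all of the 51 genes are such targets, since the list also holds receptor, kinase and signalling genes. RefSeq promoters (GRCh38.p14, 250 bases before to 50 after each listed start) were matched for 38 of the 51 genes. The element's core, taken as GAAA, any 2 bases and GAAA again on either strand (TTTC, any 2 bases and TTTC when read on the other), was in 23 of the 38, or 60.5%. It was in 1195 of all 27305 genes with a listed promoter (4.38%), in 444 of 12002 tested genes with one (3.70%) and in 26 of 77 other genes of the pathway (33.8%). Among the matched genes the core was found in 5 of 11 that rose, in 9 of 12 that fell and in 7 of 11 that were not called. All 6 matched IFIT, IFITM and tethering genes held it, and 0 of 4 matched receptor and kinase genes and 0 of 3 matched transcription factor genes did. The gamma-activated sequence TTCNNNGAA, which reads the same on both strands and can share bases with the other core, was in 11 of 38 genes (28.9%) and in 9.38% of all genes. These are matches of letters, not measured binding sites, and no test was made.

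The stretches below show the cores of 5 genes that rose, ISG15, IFIT1, IFIT3, IFI6 and BST2, and then of 3 that fell, HERC5, IFI44 and DDX60. They are reference sequence on GRCh38.p14, written 5′ to 3′ on the strand of the gene, with each core in capitals.
ISG15, chr1:1013364-1013419, plus strand: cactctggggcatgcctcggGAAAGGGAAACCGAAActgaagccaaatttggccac
IFIT1, chr10:89392487-89392545, plus strand: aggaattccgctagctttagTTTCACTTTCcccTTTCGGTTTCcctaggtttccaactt
IFIT3, chr10:89327821-89327893, plus strand: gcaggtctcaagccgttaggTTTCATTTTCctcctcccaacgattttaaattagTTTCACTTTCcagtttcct
IFI6, chr1:27672256-27672368, minus strand: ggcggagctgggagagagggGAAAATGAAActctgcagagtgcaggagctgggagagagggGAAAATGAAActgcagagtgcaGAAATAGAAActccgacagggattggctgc
BST2, chr19:17405745-17405760, minus strand: GAAACTGAAACTGAAA
HERC5, chr4:88456974-88457074, plus strand: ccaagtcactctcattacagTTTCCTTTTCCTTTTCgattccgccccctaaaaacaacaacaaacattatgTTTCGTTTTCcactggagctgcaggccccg
IFI44, chr1:78649751-78649788, plus strand: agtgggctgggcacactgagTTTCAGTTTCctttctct
DDX60, chr4:168318796-168318860, minus strand: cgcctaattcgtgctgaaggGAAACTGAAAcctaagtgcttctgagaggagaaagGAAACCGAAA
Overlapping cores were present in ISG15 and BST2, whose transcripts rose, and also in HERC5, whose transcripts fell. The nearest core of the stretch began 107 bases before the listed start in ISG15, 103 in IFIT1, 74 in HERC5 and, for 1 of its listed starts, 18 in IFI44.

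**Figure D3:**
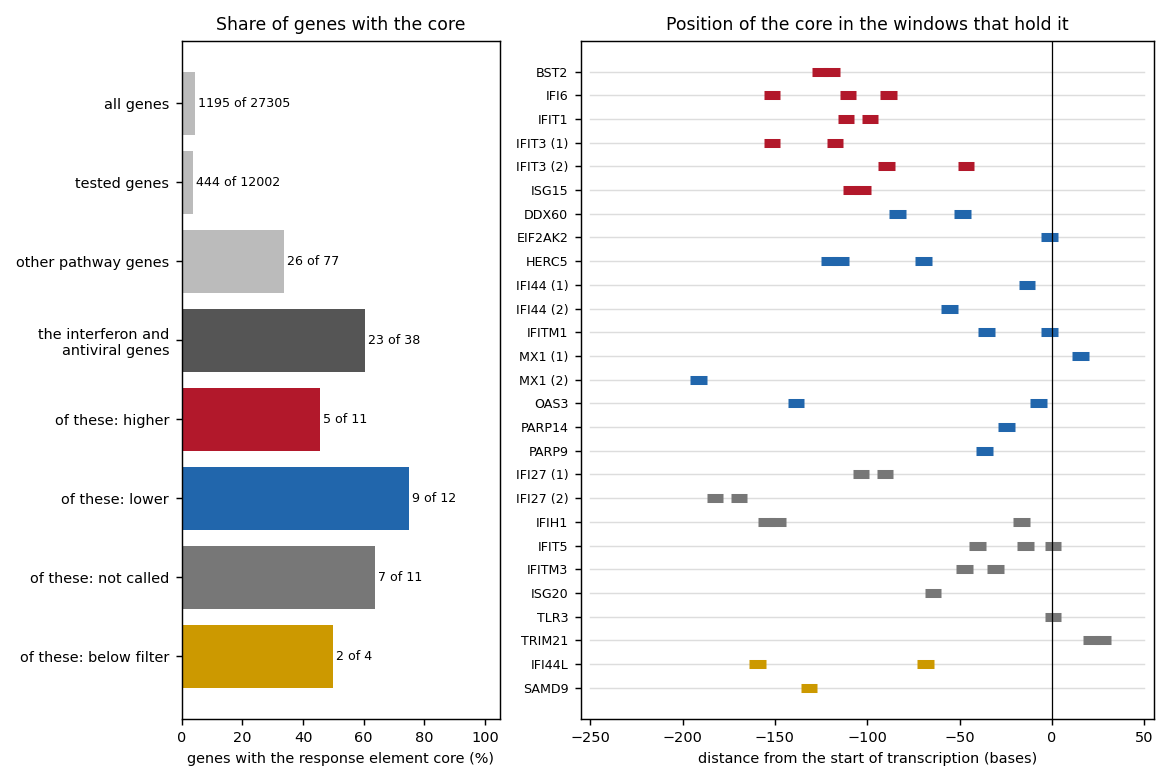
Left, the percent of genes with the response element core in their promoter windows, with counts beside the bars; right, where the core lies in each window that holds it, in bases from the start of transcription at 0, coloured red for genes higher in Enz-R, blue for lower, grey for not called and yellow for below the filter. Numbers in brackets tell apart windows of genes with more than 1 listed start. The core is in 5 of 11 genes that rose and in 9 of 12 that fell. No matched receptor, kinase or transcription factor gene holds it. These include JAK1, TYK2, IRF1 and IRF9, which rose, and IFNAR1, which fell.

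Of the 9 genes for sensors and their adaptor, 7 were tested, and 2 were higher, 2 lower and 3 not called. RIGI (ENSG00000107201, chromosome 9, 32455705 to 32526324), the cytosolic sensor of short RNA with triphosphate ends, was at 5.14, 4.80 and 5.02 CPM in the parental libraries and at 9.99, 9.33 and 8.85 CPM in Enz-R. All 3 Enz-R libraries lay above the parental ones, with a log2 fold change of 0.91 ± 0.13 (adjusted p = 1.24e-05). Errors of fold changes are SEs, computed as the size of the change over the root of its F value, and they can be too small where counts are few. DHX58, a relative of RIGI that lacks its signalling domains, was at 6.36, 6.35 and 5.41 CPM in parental and 9.03, 7.63 and 9.11 CPM in Enz-R. It rose without overlap of the groups, by 0.51 ± 0.13 (adjusted p = 0.00346). The third of this receptor family, the long RNA sensor gene IFIH1, had 0.32 ± 0.14 and was not called (adjusted p = 0.0612), though its groups did not overlap. It was called higher with at least 50 counts in 3 libraries (0.35, adjusted p = 0.0352), with GC content and length regressed out (0.41, adjusted p = 0.0184) and without Enz-R replicate 3 (0.41, adjusted p = 0.0306).

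EIF2AK2 (ENSG00000055332, chromosome 2, 37099210 to 37157065) encodes PKR, the kinase that stops translation on meeting double-stranded RNA. It was at 39.2, 39.3 and 38.2 CPM in the parental libraries and at 19.8, 19.7 and 18.1 CPM in Enz-R, a fall of 2.02-fold (-1.02 ± 0.07, adjusted p = 1.05e-08). That fall was 0.70 on the log2 scale with GC content and length regressed out, and the call was kept. The helicase gene DDX60 fell from 2.12 ± 0.482 to 1.03 ± 0.345 CPM. The endosomal RNA sensor gene TLR3 was low throughout, at 0.486, 1.00 and 0.585 CPM in parental and 0.684, 0.352 and 0.323 CPM in Enz-R, with overlapping groups (adjusted p = 0.301). STING1 was at 0.869, 0.800 and 0.585 CPM in parental and 1.23, 0.528 and 1.03 CPM in Enz-R, also with overlap (adjusted p = 0.428). The DNA sensor gene CGAS had 10 counts in each group and IFI16 had 3 in parental and 6 in Enz-R, so both were below the filter. Neither could be compared between the groups at this depth.

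Among the 5 genes for receptors and their kinases, 2 were higher, 1 lower and 2 not called, and no change reached 2-fold. IFNAR1 (ENSG00000142166, chromosome 21, 33324477 to 33359862), one chain of the type I receptor, was at 47.7, 49.1 and 50.3 CPM in parental and 40.9, 36.0 and 35.8 CPM in Enz-R. It fell by 1.30-fold without overlap (-0.38 ± 0.07, adjusted p = 0.000216). Regressing out GC content and transcript length ended the call (-0.15, adjusted p = 0.0599). IFNAR2, the second chain, was at 1.32 ± 0.237 and 1.56 ± 0.120 CPM and was not called (adjusted p = 0.421). IFNAR2-IL10RB, on the same strand, shares 44.2% of the exon sequence of IFNAR2 and had 0 counts. IL10RB-DT, on the other strand, shares 39.1% and had 50 counts, beside 178 for IFNAR2. How shared reads were counted is not known, so the level of IFNAR2 is uncertain. TYK2, the kinase bound to IFNAR1, was at 94.9, 97.1 and 97.0 CPM in parental and 109, 117 and 124 CPM in Enz-R. Its rise was small, 1.21-fold (0.28 ± 0.06, adjusted p = 0.00106), and was 0.19 with scaling by total counts.

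JAK1 (ENSG00000162434, chromosome 1, 64833229 to 64966504), the kinase bound to IFNAR2, was at 11.3, 13.8 and 13.4 CPM in parental and 14.9, 14.9 and 16.3 CPM in Enz-R. Its transcript was therefore present in all 6 libraries, and whether it encodes working protein cannot be read from counts. The value of 0.26 ± 0.11 had an adjusted p of 0.0426, and the alternatives gave 0.00251 to 0.220. The call was lost without parental replicate 1 (0.16, adjusted p = 0.220), parental replicate 3 (adjusted p = 0.0624), Enz-R replicate 2 (adjusted p = 0.0588) or Enz-R replicate 3 (adjusted p = 0.111). It was also lost with total count scaling (0.17), with no filter beyond a nonzero total (0.24, adjusted p = 0.0904) and with DESeq2 (adjusted p = 0.0685), and was 0.43 with GC content and length regressed out. The interferon gamma receptor gene IFNGR1 was at 25.0 ± 1.28 and 26.3 ± 1.45 CPM (adjusted p = 0.430).

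Of the 5 transcription factor genes 3 were higher, none was lower and 2 were not called. IRF1 (ENSG00000125347, chromosome 5, 132481609 to 132490798), itself induced by interferon and an activator of antiviral genes, was at 3.54, 2.25 and 2.68 CPM in parental and 8.34, 8.39 and 10.3 CPM in Enz-R. The groups were well apart, with a rise of 3.13-fold (1.64 ± 0.17, adjusted p = 7.77e-07). IRF1 shares 1716 exonic bases with IRF1-AS1, which lies antisense to it. Without strand the reads of both are mixed, and IRF1-AS1 was at 0.14 (adjusted p = 0.552). IRF9, the DNA-binding part of the interferon-activated complex, was at 1.22, 0.600 and 0.974 CPM in parental and 2.28, 2.11 and 1.94 CPM in Enz-R. It rose by 2.21-fold (1.15 ± 0.26, adjusted p = 0.00133) at a low level, and 48.4% of its exon sequence also belongs to a second annotated gene on the same strand.

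STAT2, the partner of IRF9, was at 64.3, 63.3 and 64.4 CPM in parental and 51.2, 65.4 and 56.2 CPM in Enz-R. The Enz-R libraries lay on both sides of the parental ones, and STAT2 was not called (-0.16 ± 0.08, adjusted p = 0.0977). Without Enz-R replicate 2, the highest, it was called lower (-0.25, adjusted p = 0.00906), as it was with total count scaling. IRF3, which acts directly downstream of the sensors, was at 91.5, 89.3 and 95.1 CPM in parental and 101, 124 and 125 CPM in Enz-R. It rose by 1.27-fold (0.34 ± 0.08, adjusted p = 0.00123), and by 0.23 on the log2 scale with GC content and length regressed out. IRF3 overlaps BCL2L12 on the other strand over 19.3% of its exon sequence, and BCL2L12 was at 0.03 (adjusted p = 0.793). IRF7, which amplifies interferon production, had -0.13 ± 0.08 and was not called (adjusted p = 0.172). It was called lower with total count scaling (-0.22, adjusted p = 0.0315) and with GC content and length regressed out (-0.44, adjusted p = 0.000123).

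The IFIT, IFITM and tethering genes split, with 3 of 8 higher, 2 lower and 3 not called. BST2 (ENSG00000130303, chromosome 19, 17402939 to 17405648), or tetherin, holds budding virus particles at the cell surface. It was at 10.4, 12.2 and 12.6 CPM in parental and 49.3, 55.8 and 45.8 CPM in Enz-R. Every Enz-R library lay far above every parental one, for a rise of 4.31-fold (2.11 ± 0.09, adjusted p = 7.05e-11). The IFIT proteins bind viral RNA that lacks a host cap. IFIT1 was at 0.625, 1.05 and 0.487 CPM in parental and 4.19, 3.58 and 3.87 CPM in Enz-R, a rise of 5.45-fold (2.45 ± 0.25, adjusted p = 5.73e-07) to a level still under 5 CPM. IFIT3, which stabilises IFIT1, rose from 0.212 ± 0.100 to 0.847 ± 0.184 CPM (adjusted p = 0.000737). Their neighbours in the same cluster on chromosome 10 (89283694 to 89421001) were not called, with IFIT2 at 0.50 ± 0.24 (adjusted p = 0.0841) and IFIT5 at 0.00 ± 0.17 (adjusted p = 0.992). IFIT2 was called higher with GC content and length regressed out (0.60, adjusted p = 0.0388) and without parental replicate 2 (0.69, adjusted p = 0.0358).

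The IFITM proteins stop viruses from fusing with the cell. IFITM3 was at 55.7, 51.2 and 51.7 CPM in parental and 52.9, 51.6 and 52.0 CPM in Enz-R, with overlapping groups (-0.02 ± 0.06, adjusted p = 0.783). With GC content and length regressed out it was called lower (-0.32, adjusted p = 0.000319). IFITM1 fell from 4.89 ± 0.909 to 1.45 ± 0.208 CPM (-1.75 ± 0.21, adjusted p = 2.79e-06). IFITM2 was at 27.3, 25.6 and 29.7 CPM in parental and 21.9, 24.0 and 18.7 CPM in Enz-R. It fell by 1.28-fold (-0.35 ± 0.09, adjusted p = 0.00373), and by 0.61 on the log2 scale with GC content and length regressed out. The 3 genes are close paralogs on chromosome 11 (307631 to 327537), and IFITM1 and IFITM2 share 351 annotated exonic bases. Their separate values are uncertain.

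**Figure D4:**
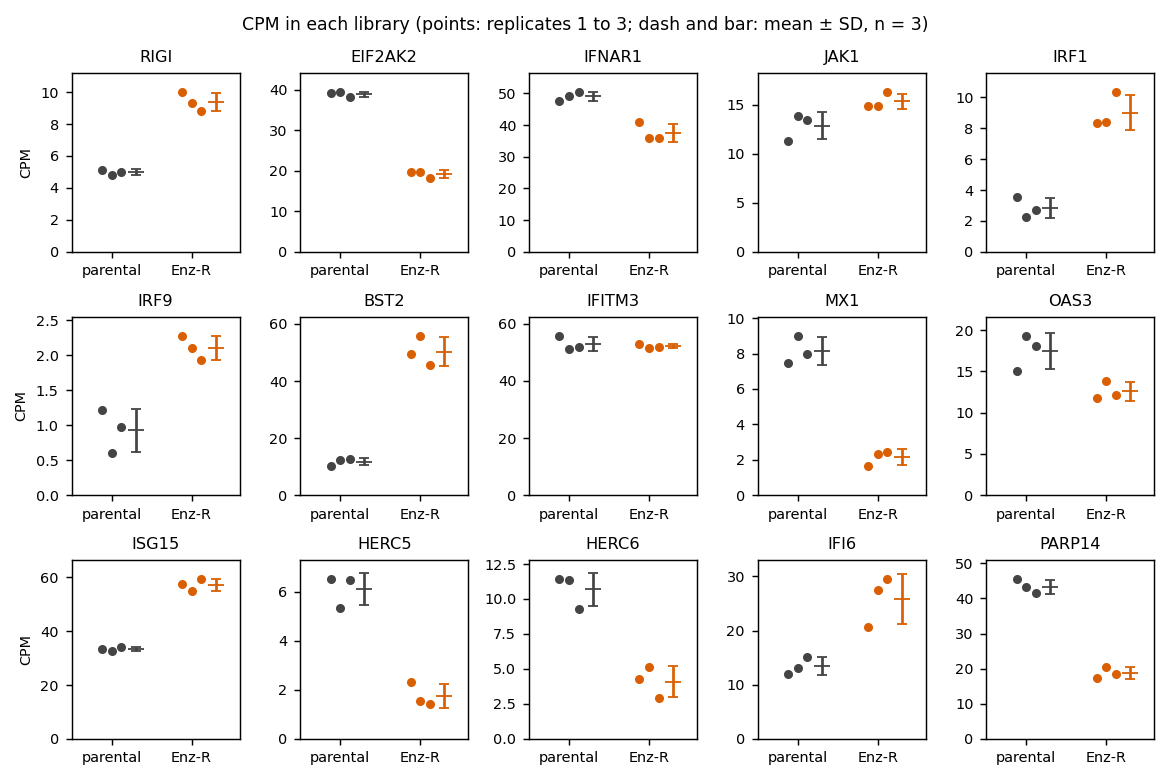
CPM of 15 genes in each library, with 3 points per group for replicates 1 to 3 and the mean ± SD beside them; every axis starts at 0. BST2, ISG15, RIGI, IRF1 and IFI6 are higher in all 3 Enz-R libraries and EIF2AK2, MX1, HERC5, HERC6 and PARP14 lower in all 3, while IFITM3 overlaps.

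Of the 6 OAS and MX genes 4 were tested, 2 higher and 2 lower. The OAS enzymes make the 2′-5′-linked oligoadenylates that activate RNase L on sensing double-stranded RNA. OAS1 and OAS3 are neighbours on chromosome 12 (112906777 to 113011723 with OAS2) and went opposite ways. OAS1 was at 0.799, 0.500 and 0.633 CPM in parental and 2.23, 2.82 and 2.52 CPM in Enz-R, a rise of 3.79-fold (1.92 ± 0.26, adjusted p = 9.02e-06). OAS3 was at 15.0, 19.3 and 18.1 CPM in parental and 11.8, 13.9 and 12.1 CPM in Enz-R, a fall of 1.39-fold (-0.47 ± 0.11, adjusted p = 0.00197). That fall was 0.27 on the log2 scale with GC content and length regressed out. OASL, an OAS-like protein that boosts RIGI signalling, rose from 0.867 ± 0.233 to 2.09 ± 0.368 CPM (1.28 ± 0.26). OAS2 had 1 count in the parental group and 4 in Enz-R.

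MX1 (ENSG00000157601, chromosome 21, 41420304 to 41459214) encodes a GTPase that traps viral nucleocapsids. It was at 7.47, 8.996 and 7.99 CPM in parental and 1.64, 2.35 and 2.45 CPM in Enz-R, a fall of 3.84-fold (-1.94 ± 0.17, adjusted p = 1.40e-07). Its neighbour MX2 was below the filter, with 4 counts in all parental libraries and 30 in Enz-R, so the scaled sums stood at a ratio of 9.55 (95% counting interval 3.36 to 37.3). Such intervals cover counting error only.

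ISG15 and the enzymes that attach and remove it did not move together. ISG15 (ENSG00000187608, chromosome 1, 1001138 to 1014540) was at 33.4, 32.6 and 34.2 CPM in parental and 57.5, 54.9 and 59.3 CPM in Enz-R. It rose by 1.71-fold (0.78 ± 0.06, adjusted p = 5.66e-08), and by 0.35 on the log2 scale with GC content and length regressed out (adjusted p = 0.000246). HERC5, the main ligase that joins ISG15 to proteins, was at 6.50, 5.35 and 6.48 CPM in parental and 2.33, 1.53 and 1.42 CPM in Enz-R. The groups did not overlap, and HERC5 fell by 3.40-fold (-1.76 ± 0.20, adjusted p = 1.36e-06). Its neighbour HERC6 (chromosome 4, 88378739 to 88443111) was at 11.4, 11.3 and 9.30 CPM in parental and 4.24, 5.11 and 2.91 CPM in Enz-R, a fall of 2.60-fold (-1.38 ± 0.17). USP18, which removes ISG15 and dampens receptor signalling, was lower by 1.23-fold, from 18.3 ± 0.745 to 14.9 ± 0.987 CPM (adjusted p = 0.00958). USP18 has a near-identical copy elsewhere in the genome, so its counts are uncertain.

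Of the 14 other effectors 11 were tested, 1 higher, 4 lower and 6 not called. IFI6, an interferon-induced protein that protects cells from death, was at 11.9, 13.1 and 15.2 CPM in parental and 20.7, 27.4 and 29.4 CPM in Enz-R. It rose by 1.93-fold without overlap (0.95 ± 0.13, adjusted p = 9.74e-06). PARP14 (ENSG00000173193, chromosome 3, 122680618 to 122730840), an ADP-ribosyltransferase, was at 45.4, 43.2 and 41.5 CPM in parental and 17.2, 20.5 and 18.5 CPM in Enz-R. It fell by 2.32-fold (-1.21 ± 0.08, adjusted p = 4.86e-09). PARP9, on the same arm of chromosome 3 (122527924 to 122564577), was at 24.7, 25.8 and 23.3 CPM in parental and 13.7, 13.8 and 11.0 CPM in Enz-R, a fall of 1.91-fold (-0.93 ± 0.10). The ubiquitin ligase gene DTX3L, the divergent neighbour and protein partner of PARP9, fell as well (-1.26 ± 0.10, adjusted p = 2.60e-08), and the 2 genes overlap by 217 exonic bases on opposite strands. IFI35 fell from 4.37 ± 0.181 to 2.24 ± 0.439 CPM and IFI44 from 1.16 ± 0.188 to 0.306 ± 0.209 CPM.

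The 6 effectors without a call were SAMHD1, TRIM21, ISG20, IFI27, CMPK2 and TRIM22, with log2 fold changes of -0.74 to 0.31. SAMHD1, which depletes the nucleotides that viruses need for DNA synthesis, was at 50.8 ± 2.84 CPM in parental and 54.3 ± 4.83 CPM in Enz-R. It was called higher with GC content and length regressed out (0.29, adjusted p = 0.00215) and without Enz-R replicate 3 (0.18, adjusted p = 0.0456). The exonuclease gene ISG20 had 0.31 ± 0.13 (adjusted p = 0.0557) and passed the threshold under 4 of the 15 alternatives, which gave adjusted p from 0.00419 to 0.197. TRIM22, a ubiquitin ligase gene, had all parental libraries above those of Enz-R (-0.74, adjusted p = 0.0720) and was called lower with total count scaling (-0.84, adjusted p = 0.0454). Below the filter, SAMD9 had 8 counts in parental libraries and 12 in Enz-R, IFI44L had 1 and 1, and XAF1 had 0 and 1.

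Interferon transcripts themselves were almost undetected. None of the 20 interferon genes listed passed the filter, and 13 of them, IFNB1 included, had 0 counts in all 6 libraries. A count of 0 allows up to 0.0433 CPM in the pooled parental libraries and 0.0551 CPM in those of Enz-R, taking 3 counts as the limit. The most counted was the lambda interferon gene IFNL1, with 10 counts in parental libraries and 9 in Enz-R. Over all 99 other genes of the pathway that were listed, 59 were tested, 20 higher, 23 lower and 16 not called. The share called was 72.9%, beside 64.8% of all tested genes, and the median log2 fold change was 0.08.

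Among these other genes of the pathway the largest rises with at least 5 CPM were those of PARP10, an ADP-ribosyltransferase, from 10.6 ± 0.465 to 87.6 ± 3.63 CPM (3.05 ± 0.07), and NLRC5, the activator of MHC class I genes, from 1.67 ± 0.0540 to 12.2 ± 0.878 CPM (2.86 ± 0.15). UBA7, the enzyme that activates ISG15 for conjugation, rose from 2.10 ± 0.171 to 5.68 ± 0.950 CPM (1.41 ± 0.18). CISH, a cytokine signalling inhibitor, rose by 1.13 ± 0.12 and the secreted glycoprotein gene LGALS3BP by 1.06 ± 0.09. The largest falls were led by ZC3HAV1, which directs viral RNA to decay, from 156 ± 3.03 to 60.5 ± 2.42 CPM (-1.36 ± 0.06). MAVS, the mitochondrial adaptor through which RIGI and IFIH1 signal, fell from 178 ± 5.95 to 77.3 ± 7.03 CPM (-1.20 ± 0.07, adjusted p = 1.32e-09). ADAR, which edits double-stranded RNA and so hides it from IFIH1, fell from 243 ± 19.7 to 121 ± 12.2 CPM (adjusted p = 3.77e-08). STAT3 fell by 0.88 ± 0.07 on the log2 scale. Along the RNA-sensing route, RIGI and DHX58 were therefore higher and the adaptor MAVS lower in the same libraries.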

How the data were processed

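Total RNA of C4-2 parental and Enz-R cells (3 libraries each) was sequenced as 150 bp paired-end reads after library preparation with a kit not stated to mark strand, per the labels' protocols. The submitters' processing notes name HISAT2 and the build GRCh38. How reads were counted, with which annotation and strand setting, is not given in the sources used here. The deposited table holds raw counts per gene and library. Positions are from GENCODE 29 (GRCh38), which held all 58676 Ensembl identifiers of the table; 889 further loci are unannotated and stayed in the fit.

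Enz-R was compared with parental by edgeR 4.0.16 in R 4.3.3 (filterByExpr, TMM, glmQLFit, glmQLFTest, no covariate), adjusted by Benjamini-Hochberg over 19029 genes. CPM use library totals scaled by TMM factors. The depth, 15673404 to 28247038 counts per library, leaves genes under about 1 CPM imprecise. The alternatives took the replicate number as a block, each library left out, DESeq2 size factors, total count scaling, mitochondrially encoded genes left out, 2 other filters, DESeq2 1.42.0 and limma 3.58.1 voom, and, chosen after the data were seen, GC content and transcript length regressed out by splines (known for 96.3% of tested genes). The genes and lists were chosen with earlier results of these data known. Every listed gene may be named; values per library are given for up to 3 called genes per role with the largest change and at least 5 CPM, and for JAK1, STAT2, IRF9, IRF3, ISG15, IFITM3, TLR3 and STING1 (IFIT1 and OAS1 were added after their values were seen). Of other pathway genes, up to 5 rises and 5 falls with that minimum are named. The fit was tested on simulated data. Motifs were searched with Python 3.11.15 and figures drawn with matplotlib 3.10.9.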

Additional observations from a re-analysis of the deposited data

How the results depend on the processing

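Of the 44 tested genes 30 kept their direction and their side of the threshold under all alternatives in which they were fitted. Of the 28 called genes 26 kept their call in this sense, and the exceptions were JAK1 and IFNAR1. The filter of at least 50 counts in 3 libraries left out part of the 44. The called genes DDX60, IRF9, IFIT3, OAS1, OASL and IFI44 were among those left out, so their calls were not tested under it. The number of the 44 called was 12 to 18 higher and 12 to 17 lower over the alternatives, and 13 to 16 and 14 to 15 with 1 library left out. Genes that the filter on 50 counts left out are not counted as called under it, here or in the counts by role. With the replicate block the counts were 14 higher and 14 lower and no call among the 44 changed. Same-numbered libraries deviated together at correlations of only -0.01 to 0.05. No shared shift by number was visible, but whether the libraries were made in pairs cannot be read from these values. Under total count scaling, 13 of the 44 were higher and 17 lower, and the median of all tested genes was -0.08. The sign changed only in genes without a call. IFNGR1 was at -0.023 with total count scaling, and IFIT5 at 0.031 with at least 50 counts in 3 libraries, 0.0057 with limma-voom and 0.14 with GC content and length regressed out. IFITM3 was at 0.012 with at least 50 counts in 3 libraries. With 1 library left out, IFIT5 ranged from -0.094 to 0.073, IFITM3 from -0.052 to 0.011, IFI27 from -0.046 to 0.30 and CMPK2 from -0.56 to 0.0037. The causes were not tested. Of 210 counts by role under the alternatives 192 stayed within 1.5 times, and the 10 other pathway genes named kept their calls in all 150 values. TLR3, STING1, CMPK2 and TRIM22, with 26 to 73 counts per group, had SEs of 0.34 to 0.41. Differences well above 1 SE can therefore be missed at this depth. In the main edgeR fit neither -0.50 in TLR3 (adjusted p = 0.301) nor -0.74 in TRIM22 (adjusted p = 0.0720) was called.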
